A study of Rattus norvegicus with 30 samples.

Results

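Cdkn1a, Gadd45a, Btg1, Btg2, Ccnd1 and Myc are growth arrest and cell cycle genes, and their signals were followed in the left ventricle of rat hearts over 6 protocols. The genes were selected from results of an earlier fit of these same arrays, so every level, change and call of theirs below is a description, not a test. Of the 6 genes 5 had probe sets that the probe-to-gene table named for them. These were 15 of the 8740 probe sets other than controls, with 2 for Cdkn1a, 5 for Ccnd1, 4 for Gadd45a, 2 for Btg1 and 2 for Myc. Btg2 was not analysed here, because no probe set carried its symbol. A filter on low signal kept 14 of the 15, and the 1 that it removed was a Ccnd1 probe set.

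Cells leave or enter the division cycle largely at the passage from the first gap phase into DNA synthesis. Cyclin D1, the product of Ccnd1, activates kinases that allow this step, and the p21 protein, made from Cdkn1a, inhibits such kinases. Gadd45a and Btg1 are also tied to the arrest of growth, Gadd45a through the response to DNA damage and other stress, whereas the transcription factor Myc promotes growth and holds down Cdkn1a transcription in many cells. Adult heart muscle cells rarely divide, and several of these genes also respond there to stress.

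Total RNA was measured on 30 Affymetrix arrays, 5 biological replicates in each of 6 groups: control (CTL), ischaemia (ISCH), ischaemic preconditioning (IPC), preconditioning with an anaesthetic (APC), and their triggers, IPC_TRI and APC_TRI. A heart is preconditioned by a brief or mild exposure that makes it withstand later ischaemia better, and a trigger is in the usual sense that exposure alone; the labels do not spell out what each protocol held, and give no strain, sex, age, agent, dose or duration. Changes are differences of mean log2(intensity + 16) ± standard error (SE) after quantile normalization, with 5 arrays a group. A probe set is called where the Benjamini-Hochberg adjusted p of limma, over 5244 probe sets, was under 0.05.

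The stretches of DNA in front of Cdkn1a, Gadd45a and Btg1 are shown because these are the arrest genes with both measured levels and a promoter sequence at hand. Each runs over the 250 bases before the gene's start, 5′ to 3′ on the gene's strand, in RefSeq's GRCr8 assembly, at chr20:7150682-7150931 (plus strand) for Cdkn1a, chr4:97486800-97487049 (minus strand) for Gadd45a and chr7:33227899-33228148 (plus strand) for Btg1. Capitals mark every match, on either strand, to the p53 half-site, the GC box GGGCGG, the octamer ATTTGCAT, the CCAAT box, the TATA box TATAAA, the cyclic AMP element TGACGTCA and the E-box CACGTG.
Cdkn1a: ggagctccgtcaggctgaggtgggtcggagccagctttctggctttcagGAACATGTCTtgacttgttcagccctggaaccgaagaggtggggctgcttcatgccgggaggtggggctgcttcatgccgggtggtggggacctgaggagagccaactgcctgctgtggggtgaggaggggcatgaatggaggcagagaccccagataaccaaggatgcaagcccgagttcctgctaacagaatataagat
Gadd45a: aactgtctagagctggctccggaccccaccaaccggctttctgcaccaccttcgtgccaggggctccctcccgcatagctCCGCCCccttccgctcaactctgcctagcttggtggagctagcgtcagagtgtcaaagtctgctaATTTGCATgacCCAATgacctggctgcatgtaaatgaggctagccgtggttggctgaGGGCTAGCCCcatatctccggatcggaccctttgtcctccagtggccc
Btg1: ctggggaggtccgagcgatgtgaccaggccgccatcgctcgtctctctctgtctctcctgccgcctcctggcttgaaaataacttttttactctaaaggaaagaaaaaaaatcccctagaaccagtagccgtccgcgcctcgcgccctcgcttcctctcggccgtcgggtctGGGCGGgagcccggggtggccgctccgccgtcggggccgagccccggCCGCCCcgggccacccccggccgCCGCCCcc
Cdkn1a held 1 p53 half-site, starting 201 bases before the gene's start. Gadd45a held 1 p53 half-site, 1 octamer, 1 CCAAT box and 1 GC box, and Btg1 held 3 GC boxes. No marked match overlapped another, and the TATA box, cyclic AMP element and E-box had no match in these windows. Over the 250 bases before the start of each of 33469 entries of the same table, the p53 half-site was present in 6.64%, the octamer in 1.56%, the CCAAT box in 34.0%, the GC box in 30.5%, the TATA box in 12.9%, the cyclic AMP element in 1.59% and the E-box in 5.59%. The matches describe the letters only.

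The deposited intensities had been scaled to a 2% trimmed mean of 500.8 to 501 on each array. The summed signal of 9 measured markers of ventricular heart muscle was 160786 to 440376 on the 30 arrays, against 221.6 to 4261.4 for 2 atrial markers. The highest atrial sum was that of 1 APC_TRI array. The median of that group was 625.9, and no array of another group was above 916.1. The IPC_TRI arrays resembled each other least, with mean correlations within the group of 0.853 to 0.901, and ISCH 1 was lowest in its group at 0.905 where CTL had 0.952 to 0.965. IPC 5 also stood apart, with a summed signal of 11 fibroblast and matrix markers of 97850 where the other 4 IPC arrays had 49684 to 56785. Its values are given with the genes below.

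Cdkn1a was the member with the widest range, and it was high after both triggers. Its brighter probe set, U24174_at, had intensities of 1050.9, 1717.5, 1314.1, 966.5 and 870.2 on CTL arrays 1 to 5. In IPC_TRI the 5 values were 2199.1, 1867, 2220, 2599.5 and 5496.5. In APC_TRI they were 4246.7, 4633.3, 1986, 2994.5 and 3524.5. All 10 trigger arrays therefore lay above all 5 control arrays, and IPC_TRI 5 was the highest of the 30 arrays. Cdkn1a rose by 1.31 ± 0.40 in IPC_TRI and by 1.59 ± 0.40 in APC_TRI, which is 2.48-fold and 3.00-fold. In bulk tissue a change in the share of a cell type and a change in RNA per cell cannot be told apart. The 2 triggers overlapped each other, with an IPC_TRI minus APC_TRI change of -0.28 (95% interval -1.09 to 0.53).

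In ISCH, IPC and APC no change of Cdkn1a against CTL was called. In ISCH its values were 205, 775.3, 692.7, 783.2 and 857.9. In IPC they were 1612.1, 1693.8, 963.3, 1469.5 and 362.3, and in APC 813.5, 1144, 431.7, 832.1 and 1342.8. The ISCH arrays all lay below the lowest CTL array in intensity, with ISCH 1 far below the others, but the groups overlapped after normalization. The change in ISCH was -0.89 ± 0.40, and -0.48 without ISCH 1. The changes were -0.08 in IPC and -0.38 in APC, and that of IPC was 0.29 without IPC 5.

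Each full protocol was lower in Cdkn1a than its own trigger. Cdkn1a fell in both comparisons, with changes of -1.39 ± 0.40 in IPC minus IPC_TRI and -1.97 ± 0.40 in APC minus APC_TRI, and in both pairs no array of the full protocol reached the lowest trigger array. In order of mean intensity the groups were ISCH (663 ± 263, SD), APC (913 ± 349), CTL (1184 ± 341), IPC (1220.2 ± 557), IPC_TRI (2876 ± 1487) and APC_TRI (3477 ± 1047). The only neighbours in this order whose arrays did not overlap were IPC and IPC_TRI.

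**Figure D1:**
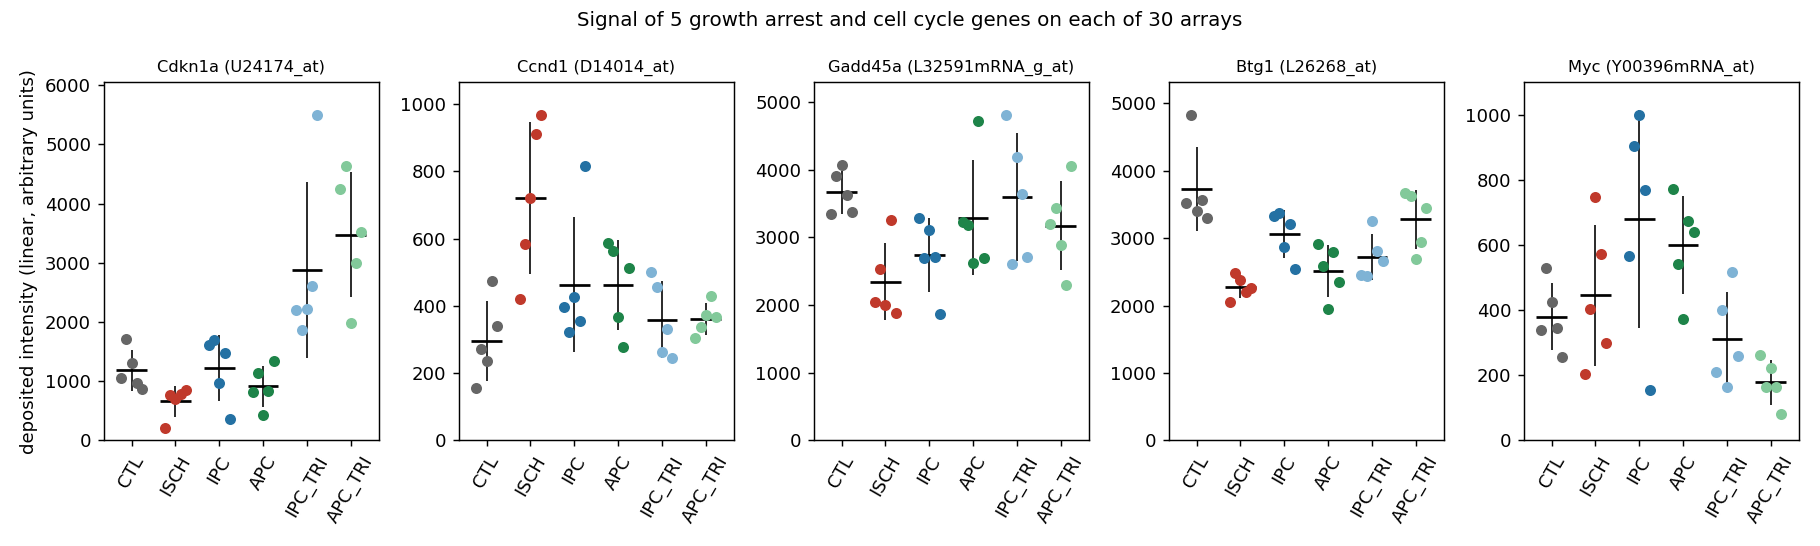
Deposited intensity (linear, arbitrary units, from 0) of the brightest probe set of each of the 5 measured genes on each of the 30 arrays; points are arrays 1 to 5 of a group from left to right, bars are group means and vertical lines the SD. All 10 trigger arrays lie above the 5 CTL arrays for Cdkn1a, and all 5 ISCH arrays lie below the CTL arrays for Btg1.

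The second Cdkn1a probe set, L41275cds_s_at, had changes of the same signs, smaller ones in the triggers. Its mean intensity was 686 ± 280 (SD) in CTL, 1015 ± 450 in IPC_TRI and 1142 ± 323 in APC_TRI. Its changes of 0.63 in IPC_TRI and 0.79 in APC_TRI were not called, and the fall of 1.12 in APC minus APC_TRI was. With the mean over both probe sets the Cdkn1a changes were 0.97 in IPC_TRI and 1.19 in APC_TRI, neither called. The RNA of the trigger groups also differed in a control: the log2 ratio of 3′ to 5′ beta-actin signal was -0.98 to 0.05 in IPC_TRI and -0.70 to -0.02 in APC_TRI, against -0.31 to 0.31 in CTL. With that ratio as a covariate the Cdkn1a changes were 0.77 in IPC_TRI, 1.14 in APC_TRI and -0.59 in IPC minus IPC_TRI, none of them called, whereas APC minus APC_TRI kept its call. The summed signal of the heart muscle markers was 256080 to 387662 in IPC_TRI and 240452 to 302424 in APC_TRI, against 181262 to 296338 in CTL, though of its 9 members 0 rose in either trigger, 3 fell in IPC_TRI and 1 fell in APC_TRI (median changes 0.02 and -0.13). Fibroblast and matrix markers summed to 59191 to 98604 in IPC_TRI and 59200 to 66773 in APC_TRI, against 46400 to 55005 in CTL. Of the 10 tested 1 rose and 0 fell in each trigger, and the medians were -0.20 and -0.26, opposite in sign to the shift of the sums. The part of both lists in the result was not tested. The IPC_TRI call ended without CTL 4 (1.24), CTL 5 (1.21) or IPC_TRI 5 (1.02), and that of IPC minus IPC_TRI without IPC 5 (-1.02) or IPC_TRI 5 (-1.10).

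Ccnd1, the cyclin that starts the cycle, was highest after ischaemia without preconditioning on its brightest probe set, D14014_at. This probe set had 156, 270.9, 235.5, 473.2 and 341.1 in CTL. In ISCH it had 421.5, 582.7, 721.6, 909.3 and 967.3. Only ISCH 1 was within the CTL range. Ccnd1 rose by 1.28 ± 0.28 in ISCH, from a mean of 295 ± 120 (SD) to 720.5 ± 226. In IPC the values were 395.9, 321.8, 426.4, 355.8 and 815.6. In APC they were 587.6, 562.5, 367.6, 277.8 and 513.7. These groups lay between CTL and ISCH, with changes against CTL of 0.66 ± 0.28 and 0.69 ± 0.28 that were not called. IPC 5 was the highest of its group, and the change in IPC was 0.45 without it. In IPC_TRI the values were 499.7, 455.7, 263.5, 331 and 245.6, and in APC_TRI 303.2, 335.6, 373.1, 428.8 and 366.9. Both triggers overlapped CTL, with changes of 0.24 and 0.35, not called. In order of mean the groups were CTL, IPC_TRI, APC_TRI, APC, IPC and ISCH, and each overlapped its neighbour.

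Of the 4 tested Ccnd1 probe sets 3 rose in ISCH, and they differed more in the triggers. D14014_g_at rose by 1.41 ± 0.43 and X75207_s_at by 1.19 ± 0.25 in ISCH. For X75207_s_at the 5 ISCH arrays (327.9 to 572.4) lay above the 5 CTL arrays (146.1 to 234.1). The probe set rc_AA957218_at had only 0.44 ± 0.33 in ISCH, but rose by 1.04 in IPC_TRI and fell by 0.96 in IPC minus IPC_TRI, where D14014_at had 0.42. On rc_AA957218_at the highest means were those of the triggers, 554.7 in IPC_TRI and 524.6 in APC_TRI, against 343.7 in ISCH. The fifth, rc_AI231257_at, had intensities of 12.4 to 127 and was not tested. Markers of fibroblasts and matrix were high on the ISCH arrays and on IPC 5, as D14014_at was. Of the 11 markers on that list 10 were tested, 6 rose in ISCH and 0 fell, and none was at 0 on any array. Their summed signal was 76149 to 98510 in ISCH against 46400 to 55005 in CTL, and IPC 5, highest of its group in Ccnd1, had 97850. In APC, where D14014_at had 0.69, the sum was 39255 to 55326. In both triggers, where D14014_at overlapped CTL, the sum lay above CTL at 59191 or more. On X75207_s_at and rc_AA957218_at, 4 of the 5 arrays of each trigger lay above all CTL arrays. On D14014_g_at these were 1 in IPC_TRI and 2 in APC_TRI. The part of the markers in the result was not tested.

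Gadd45a, a stress gene linked to growth arrest and DNA repair, fell in ISCH on its brightest probe set. The brightest, L32591mRNA_g_at, had 3340.4, 3914.1, 4069.6, 3634.9 and 3381.1 in CTL. In ISCH it had 2039, 2533.6, 1998.7, 3262.5 and 1884.9. All ISCH intensities lay below those of CTL, with ISCH 4 nearest, but the groups overlapped after normalization. Gadd45a fell by 0.63 ± 0.19 in ISCH, from a mean of 3668 ± 321 (SD) to 2344 ± 571. In IPC the values were 3287.6, 2702.5, 3102.9, 2714.4 and 1867.2. In APC they were 3230.9, 3184.8, 2615.2, 4725.4 and 2692.2. The IPC arrays lay below CTL as well, though the change of -0.48 ± 0.19 was not called, and APC overlapped CTL with -0.22. In IPC_TRI the values were 4811.5, 2606.5, 4186.3, 3645.8 and 2714.9, and in APC_TRI 3196.2, 3437.3, 2890.1, 2291.9 and 4059.7. IPC_TRI spanned the CTL range, 3 of the 5 APC_TRI arrays lay below it, and the changes of 0.03 and -0.21 were not called. The order of the means was ISCH, IPC, APC_TRI, APC, IPC_TRI and CTL, with each group overlapping the next.

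For the triggers, the Gadd45a result depended on the probe set. L32591mRNA_at had 1417.5, 1873.5, 1752.1, 1940.2 and 1525.5 in CTL. It had 1297.6, 809.1, 1071.3, 786.8 and 600.8 in IPC_TRI, and 570.7, 979.2, 853.8, 615.9 and 1056.2 in APC_TRI. No trigger array reached the lowest CTL array on this probe set, which fell by 0.89 ± 0.23 in IPC_TRI and by 1.05 ± 0.23 in APC_TRI. In APC minus APC_TRI it rose by 0.90, where L32591mRNA_g_at had -0.01. In IPC minus IPC_TRI it had 0.58, not called, where L32591mRNA_g_at fell by 0.50. In ISCH both were lower, and L32591mRNA_at had -0.65 there, not called. The identifiers of both name the same sequence record. The dimmer probe sets rc_AI070295_at and rc_AI070295_g_at had no call, with ISCH changes of 0.59 and 0.019.

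The Gadd45a calls were near the threshold. With the spike signal as a covariate the ISCH value was -0.63, and with the mean over the 4 probe sets -0.17, neither called; the mean log2 spike signal was 12.02 in ISCH and 10.75 in CTL. The call of ISCH minus CTL ended without CTL 2 (-0.62), CTL 3 (-0.59), CTL 4 (-0.63), ISCH 1 (-0.60), ISCH 3 (-0.58) or ISCH 5 (-0.56). That of IPC minus IPC_TRI ended for 17 of the 30 arrays, 7 of them in its own groups (-0.37 without IPC_TRI 1 and -0.39 without IPC 5, also IPC 2, IPC 3, IPC 4, IPC_TRI 3 and IPC_TRI 4).

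**Figure D2:**
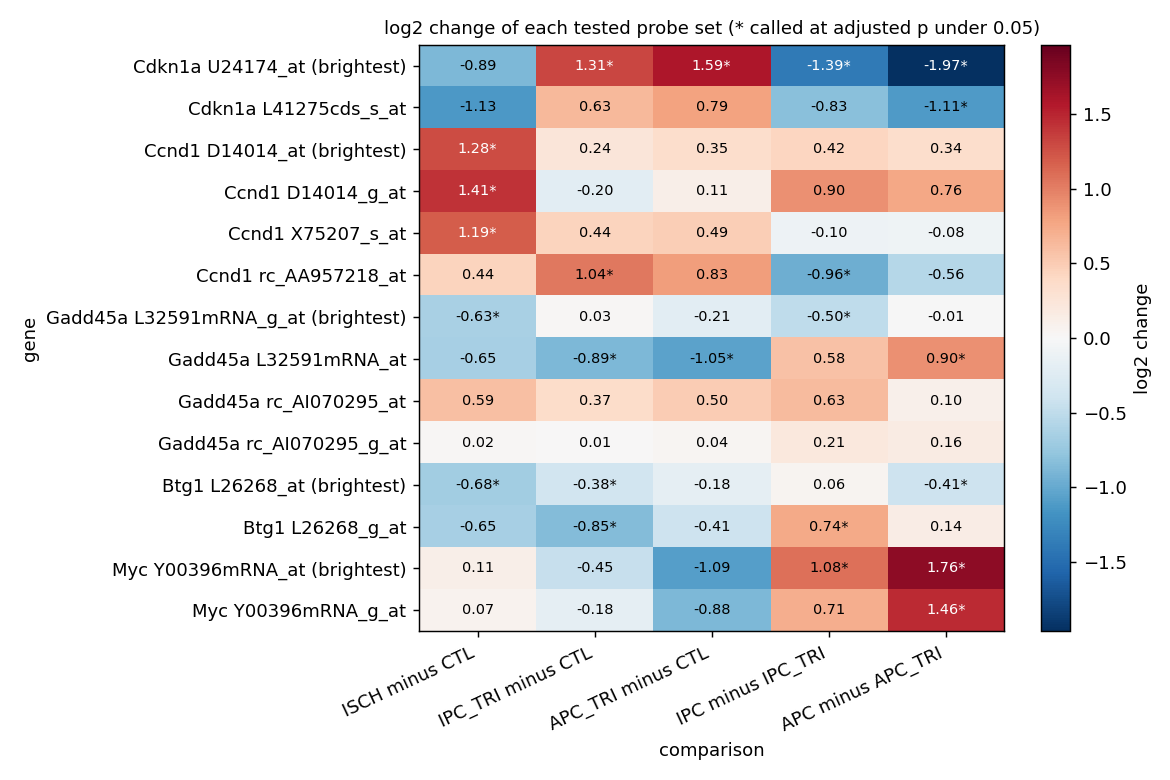
Heat map of log2 change (colour and printed value, * where called) for the 14 tested probe sets in 5 comparisons; rows are probe sets ordered by gene with the brightest first. The probe sets of Cdkn1a and of Myc share a sign in each comparison shown, while those of Gadd45a differ in IPC minus IPC_TRI (-0.50 against 0.58).

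Btg1, whose protein slows growth in many cell types, was lower than in CTL in ISCH, APC and IPC_TRI. Its brighter probe set, L26268_at, had 3525, 4828.3, 3407.8, 3565.1 and 3298.8 in CTL. In ISCH it had 2059.6, 2478.3, 2380.4, 2196.3 and 2255.6. The groups were far apart and the ISCH arrays lay close together, with a mean of 2274 ± 162 (SD) against 3725 ± 626. Btg1 fell by 0.68 ± 0.13 in ISCH. In IPC the values were 3326.5, 3375.7, 2867, 3204.9 and 2539.2. In APC they were 2919.7, 2581.3, 1947.1, 2791.1 and 2354.8. All APC arrays lay below CTL and Btg1 fell by 0.59 there, whereas IPC overlapped CTL and its change of -0.32 was not called. In IPC_TRI the values were 2455.8, 2432.4, 3258.6, 2807.3 and 2657.6, and in APC_TRI 3675.7, 3627.7, 2685.7, 2945.1 and 3452.2. The IPC_TRI arrays lay below CTL, with a fall of 0.38, and APC_TRI overlapped CTL with -0.18, not called. In order of mean the groups were ISCH, APC, IPC_TRI, IPC, APC_TRI and CTL, and each overlapped its neighbour.

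IPC and ISCH did not overlap for Btg1, though the difference of 0.36 ± 0.13 was not called. In APC minus APC_TRI Btg1 fell by 0.41 ± 0.13. The second probe set, L26268_g_at, had -0.65 in ISCH and -0.27 in APC against CTL, not called, fell by 0.85 in IPC_TRI and rose by 0.74 in IPC minus IPC_TRI, where L26268_at had 0.06. In APC minus APC_TRI it had 0.14, of the opposite sign. The IPC_TRI call of L26268_at ended without CTL 1 (-0.40), CTL 2 (-0.28), CTL 3 (-0.40), CTL 4 (-0.39), IPC_TRI 1 (-0.36), IPC_TRI 2 (-0.34), IPC_TRI 4 (-0.38) or IPC_TRI 5 (-0.39). That of APC minus APC_TRI ended without APC 3 (-0.32), APC 5 (-0.38), APC_TRI 1 (-0.37), APC_TRI 2 (-0.37) or APC_TRI 5 (-0.38).

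Myc, the growth-promoting factor, was lowest after the triggers and highest after full preconditioning. The brighter probe set, Y00396mRNA_at, had 340.4, 530, 426.3, 345.6 and 256.1 in CTL. In APC_TRI it had 262.4, 162.6, 221.4, 164.1 and 81.3. In APC it had 771.8, 543.1, 372.7, 674.3 and 639.2. All 5 APC arrays lay above all 5 APC_TRI arrays, and Myc rose by 1.76 ± 0.40 in APC minus APC_TRI. In IPC_TRI the values were 209.3, 400.3, 165, 516.8 and 258.1. In IPC they were 566, 905, 999.4, 767.9 and 155.2. Of the IPC arrays 4 lay above every IPC_TRI array and IPC 5 lay below them all. Myc rose by 1.08 ± 0.40 in IPC minus IPC_TRI, and by 1.53 without IPC 5. That call ended for 23 of the 30 arrays, 7 of them in its own groups (0.89 without IPC 3, 0.93 without IPC 2 or IPC_TRI 1, also IPC 1, IPC 4, IPC_TRI 3 and IPC_TRI 5).

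Against CTL no Myc change was called. The ISCH values of 205.2, 403, 746.2, 573.6 and 299.8 spread around those of CTL, with a change of 0.11 ± 0.40. The changes were 0.64 in IPC, 0.67 in APC, -0.45 in IPC_TRI and -1.09 in APC_TRI. The second probe set, Y00396mRNA_g_at, had the same signs. It rose by 1.46 ± 0.30 in APC minus APC_TRI, with its 5 APC arrays above the 5 APC_TRI arrays, and had 0.71 in IPC minus IPC_TRI, not called. In order of mean intensity the groups were APC_TRI (178 ± 68.5, SD), IPC_TRI (309.9 ± 146), CTL (379.7 ± 103), ISCH (446 ± 217), APC (600.2 ± 151) and IPC (679 ± 335), and each overlapped the next.

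**Figure D3:**
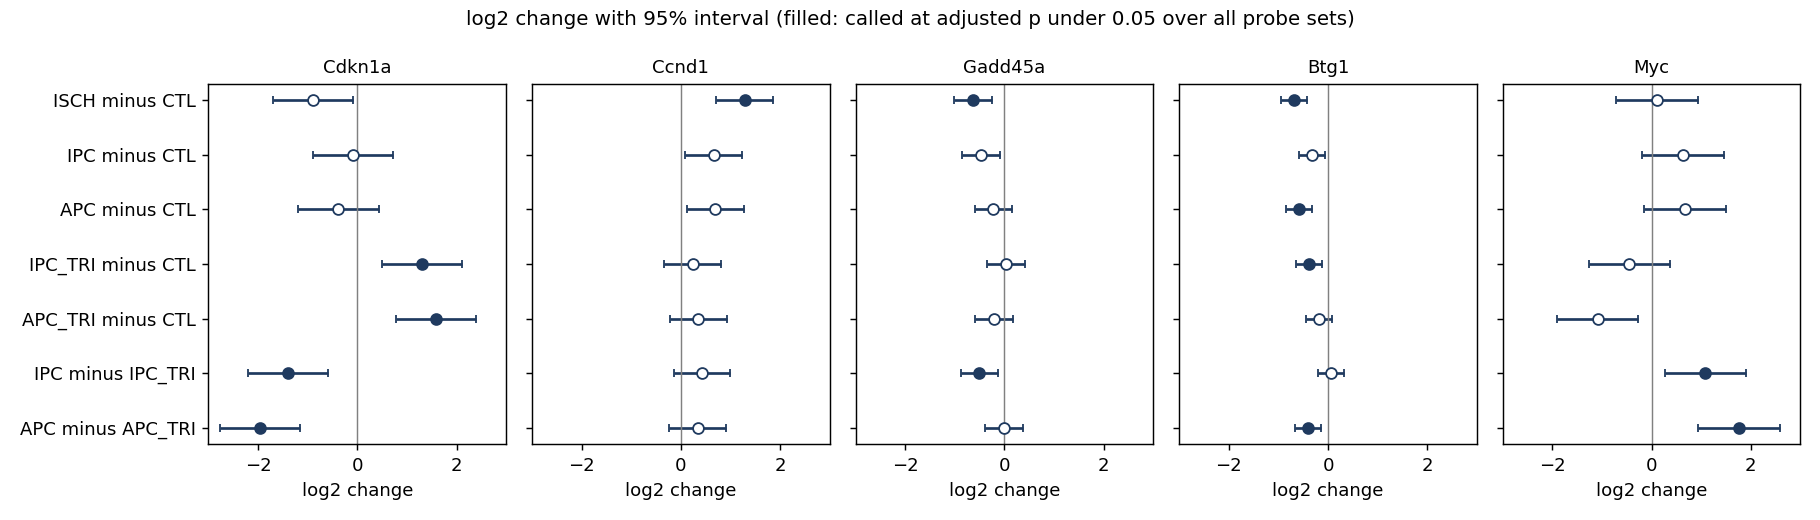
log2 change (points, with 95% intervals as bars) of the brightest probe set of each of the 5 genes in 7 comparisons; filled points were called at an adjusted p under 0.05. Cdkn1a has 1.31 and 1.59 in the triggers against CTL, and -1.39 and -1.97 in the full protocols against their triggers, where Myc has 1.08 and 1.76.

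Counted over the 5 genes by their brightest probe set, 3 were called in ISCH minus CTL (Ccnd1 up, Btg1 and Gadd45a down), where 8.77% of all 5244 tested probe sets were called. In IPC minus CTL 0 of 5 were called by limma against 3.89% of all, and 591 probe sets had an unadjusted p under 0.05. In APC minus CTL 1 of 5 was called (3.66% of all), in IPC_TRI minus CTL 2 (16.6%) and in APC_TRI minus CTL 1 (8.64%). In IPC minus IPC_TRI 3 of 5 were called (23.4%) and in APC minus APC_TRI 3 (17.7%). The genes were chosen on these contrasts, so nothing is read from these shares. The 5 CTL arrays stand in each comparison with CTL, and the arrays of each trigger stand in 2 of the comparisons above.

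The preconditioned groups were also set against ISCH. In IPC minus ISCH 0 of the 5 genes were called by limma, as were 0.172% of all probe sets, and 568 probe sets had an unadjusted p under 0.05. In APC minus ISCH 0 were called against 0.267%, with 643 at an unadjusted p under 0.05. The values in IPC minus ISCH were 0.80 (95% interval -0.00 to 1.61) for Cdkn1a, -0.62 (-1.19 to -0.04) for Ccnd1, 0.15 (-0.22 to 0.53) for Gadd45a, 0.36 (0.10 to 0.63) for Btg1 and 0.52 (-0.30 to 1.35) for Myc. In APC minus ISCH they were 0.51 (-0.30 to 1.32) for Cdkn1a, -0.59 (-1.17 to -0.02) for Ccnd1, 0.41 (0.03 to 0.79) for Gadd45a, 0.09 (-0.17 to 0.36) for Btg1 and 0.56 (-0.27 to 1.38) for Myc. These intervals are not adjusted for the number of probe sets. For each of the 5 genes the values of IPC minus ISCH and APC minus ISCH had 1 sign, and both use the same ISCH arrays.

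The 2 kinds of preconditioning gave no call among these genes when set against each other. In IPC minus APC 0 of 5 genes and 0% of all 5244 probe sets were called by limma, with 137 at an unadjusted p under 0.05. The 95% intervals were -0.51 to 1.11 for Cdkn1a, -0.60 to 0.55 for Ccnd1, -0.63 to 0.13 for Gadd45a, 0.01 to 0.54 for Btg1 and -0.86 to 0.79 for Myc. In IPC_TRI minus APC_TRI 0 of 5 were called by limma against 0.439% of all, with 771 at an unadjusted p under 0.05, and Myc had the largest of the 5 values, 0.64 (-0.18 to 1.47).

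Whether the change from trigger to full protocol differed from the change from CTL to ISCH was asked with interaction contrasts. For IPC, 1 of 5 genes was called against 13.6% of all probe sets: Btg1, with 0.74 ± 0.18, was lower by 0.68 in ISCH than in CTL but near its trigger in IPC. For APC, 0 of 5 were called by limma against 8.22% of all, with 1335 at an unadjusted p under 0.05. Cdkn1a had -0.50 ± 0.56 for IPC and -1.08 ± 0.56 for APC, and Myc had 0.97 ± 0.57 and 1.65 ± 0.57. Between the 2 kinds of preconditioning 0 of 5 were called by limma against 0.0953% of all, with 446 at an unadjusted p under 0.05.

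Other genes of the same pathways were read from 6 lists. Of 7 other CDK inhibitor genes 3 were tested and 1 was called in any comparison of 2 groups. Cdkn1c, which encodes the inhibitor p57, rose by 0.93 ± 0.27 in IPC_TRI (adjusted p = 0.018, limma), from a mean intensity of 86.2 ± 15.6 to 218 ± 100.4 (SD, n = 5), and fell by 0.84 in IPC minus IPC_TRI. In APC_TRI it had 0.39, not called. The list median in IPC_TRI was -0.10 where that of all genes was -0.02, and Cdkn1b and Cdkn2b were not called.

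Of 24 other G1 cyclins, kinases and pocket proteins 6 were tested. Against CTL 1 of the 6 rose in ISCH, 0 in IPC, 1 in APC, 2 in IPC_TRI and 3 in APC_TRI, and 0 fell in any of these. Of all 3155 genes 3.39% rose in ISCH, 1.52% in IPC, 1.08% in APC, 6.94% in IPC_TRI and 3.61% in APC_TRI. The shares that fell were 4.91%, 2.09%, 2.19%, 8.75% and 4.28% in the same order. Ccnd3, another D-type cyclin, rose by 0.68 ± 0.18 in ISCH, 0.70 in APC, 0.88 in IPC_TRI and 0.80 in APC_TRI (adjusted p = 0.013, 0.017, 0.0015 and 0.0050, limma). Its mean intensity was 1398 ± 359 in CTL, 2120.3 ± 325 in ISCH, 2377 ± 365 in IPC_TRI and 2290.4 ± 326 in APC_TRI (SD, n = 5). Unlike the brightest Ccnd1 probe set, it was called in both triggers; the difference between the genes was not tested. Cdc37, which helps kinases such as Cdk4 fold, rose by 0.42 in IPC_TRI and 0.40 in APC_TRI. Both Ccnd3 and Cdc37 fell in IPC minus IPC_TRI (-0.57 and -0.54). Rbl2, a pocket protein that restrains entry into the cycle, rose by 0.73 in APC_TRI and fell by 0.63 in APC minus APC_TRI. The list median was 0.37 in IPC_TRI and 0.34 in APC_TRI, where those of all genes were -0.02 and 0.01.

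Of 39 genes of DNA synthesis and mitosis on a list 10 were tested, 0 were called by limma in ISCH, IPC, APC or APC_TRI against CTL, and 1 rose in IPC_TRI, where 6.94% of all genes rose and 8.75% fell. That gene was Mcm7, part of the helicase that opens DNA for copying, at 0.60 ± 0.19 (adjusted p = 0.030). In IPC minus IPC_TRI 1 rose, Stmn1 by 0.65, a regulator of microtubules, and 2 fell, Mcm7 by 0.58 and the mitotic cyclin Ccnb1 by 0.82. Of all genes 12.2% rose and 10.6% fell in that comparison, so the counts were near the background. Proliferation markers Pcna, Top2a and Plk1 were tested and had no call in any comparison of 2 groups.

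Of 26 other genes of p53 and its targets 4 were tested. In ISCH 1 rose and 1 fell, where 3.39% of all genes rose and 4.91% fell. Igfbp3, which binds insulin-like growth factors, rose by 1.12 ± 0.23 (adjusted p = 0.0014, limma), and the cyclin gene Ccng1 fell by 0.43 ± 0.13 (adjusted p = 0.040). The Ccng1 value was only -0.187 with the values as deposited and -0.282 with each array centred on its median. In IPC_TRI and APC_TRI 0 of 4 were called by limma, where 6.94% and 3.61% of all genes rose and 8.75% and 4.28% fell. The list medians were 0.20 and 0.12, against -0.02 and 0.01 for all genes. The p53 inhibitor gene Mdm2 was among those not called.

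The list of other growth arrest genes held 29, of which 12 were tested. In ISCH 3 rose and 2 fell, against 3.39% of all genes up and 4.91% down. Cebpd, a transcription factor that slows growth and rises in inflammation, fell by 1.81 ± 0.36 in ISCH (adjusted p = 0.0011, limma), from a mean intensity of 1000.1 ± 305 to 269 ± 89.5 (SD, n = 5). It also fell in APC (-1.51), in IPC minus IPC_TRI (-1.36) and in APC minus APC_TRI (-2.01). Pmp22, a membrane protein of growth-arrested cells, rose by 1.48 ± 0.27 in ISCH, by 0.96 in APC and by 0.97 and 0.90 in the full protocols against their triggers. Gas7 rose by 0.93 in ISCH, 1.18 in IPC_TRI and 0.85 in APC_TRI, and fell in IPC minus IPC_TRI (-0.85) and APC minus APC_TRI (-0.65). Ppp1r15a, which is induced with growth arrest and restores protein synthesis after stress, rose by 0.75 ± 0.16 in ISCH, 0.64 in IPC and 0.91 in APC (adjusted p = 0.0025, 0.015 and 2.45e-04), and had 0.24 and 0.23 in the triggers, not called. It thus went the other way in ISCH from the brightest probe sets of Gadd45a and Btg1. The dimmer Gadd45a probe sets rc_AI070295_at and rc_AI070295_g_at had 0.59 and 0.019 there, not called.

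Of 26 genes of the Myc network and its targets 15 were tested. In IPC minus IPC_TRI, where Myc was higher, 5 rose and 1 fell, with a median of 0.48 against 0.01 for all genes, of which 12.2% rose and 10.6% fell. In APC minus APC_TRI 3 rose and 1 fell, with a median of 0.16 against -0.01 for all genes, of which 8.91% rose and 8.34% fell. Hspd1, a mitochondrial chaperone, rose by 0.66 and 0.61 in these comparisons, Id2, an inhibitor of differentiation factors, by 1.55 in the first, and Mxd4 by 1.57 and 1.49. Mxd4 opposes Myc at their shared partner Max. Ndrg4, of a family named for its regulation by N-Myc, fell in both (-1.19 and -1.02) and rose by 0.73 in IPC_TRI and 0.71 in APC_TRI (adjusted p = 0.0059 and 0.012, limma). Ndrg4 was bright in this tissue, with mean intensities of 9980 ± 579 in CTL, 18746 ± 2331 in IPC_TRI and 18143 ± 4776 in APC_TRI (SD, n = 5).

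**Figure D4:**
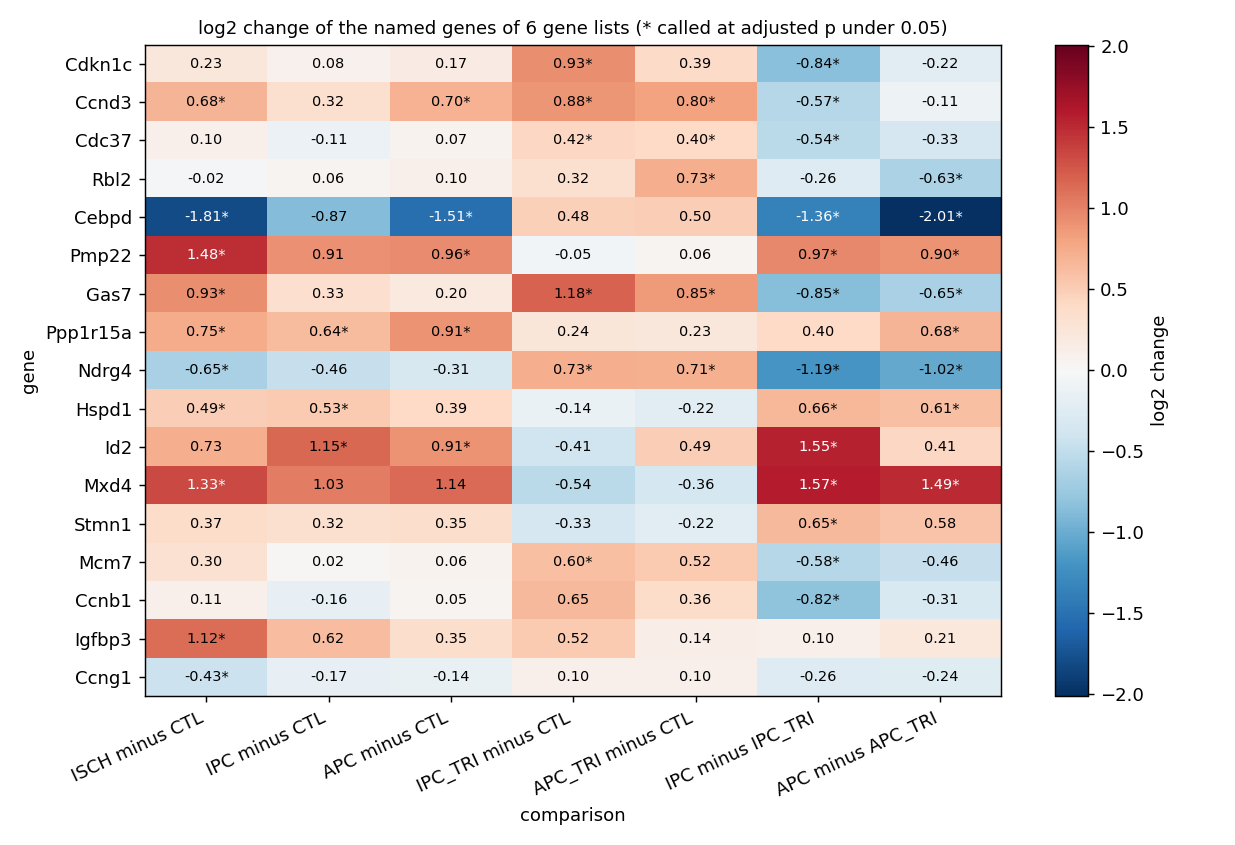
Heat map of log2 change (colour and printed value, * where called) for the 17 named genes of 6 gene lists in 7 comparisons. Cebpd has the largest falls, -1.81 in ISCH minus CTL and -2.01 in APC minus APC_TRI, and Ndrg4 is up in both triggers and down in both full protocols against their triggers.

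The genes with the pattern most like each member over the 30 arrays were found by Pearson's r of normalized log2 values among all 3155 tested genes. For Cdkn1a they were Ldhb (r = 0.843), Rab12 (0.827) and Acsl1 (0.827), with r of 0.59, 0.553 and 0.515 for deviations from the group means. For Ccnd1 they were Ndufa4l2 (0.849), Cyp4b1 (0.795) and Nat2 (0.792), with 0.738, 0.685 and 0.781 within groups. The likeness of Ccnd1 thus held nearly as much within groups as over them. For Gadd45a they were Pla2g5 (0.715), Slc20a2 (0.714) and Stx6 (0.709), and within groups 0.65, 0.542 and 0.589. For Btg1 they were Gch1 (0.779), Vcam1 (0.742) and Eif2ak2 (0.729), with only 0.267, 0.249 and 0.164 within groups. For Myc they were Stip1 (0.773), Plat (0.754) and Gabrd (0.75), and within groups 0.671, 0.509 and 0.663. The arrays are shared by all these genes, and the values describe these arrays only.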

How the data were processed

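The deposited values are intensity values on a linear scale, 1 per probe set and array, scaled by the authors to a common trimmed mean, as the values show. RNA handling followed the array maker's standard procedures, per the labels; the software is not given in the sources used here. The table held 8799 probe sets. Its 59 controls were left out of normalization, filter and tests. Some of them gave the spike signal and the beta-actin ratio, and the trimmed means included them. Of the probe sets other than controls 7006 carried 1 gene symbol, 308 several and 1426 none. Each of the 30 columns took its group from the protocol named for its sample. The number of arrays limits the precision.

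Values were taken as log2(intensity + 16) and quantile normalized. Dropping the dimmest 40% by mean left 5244 probe sets of 3155 genes. limma 3.58.1 (R 4.3.3) fitted 1 mean per group with trended moderated variances, 11 contrasts of 2 groups and 3 interactions, Benjamini-Hochberg adjusted for each. A gene was counted by its probe set with the highest mean. The fit was tested on simulated data. Tables and figures used Python 3.11.15, pandas 2.3.3 and matplotlib 3.10.9.

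The members and lists were chosen with earlier results of these data known. All members were named, of each list up to 4 called genes with the smallest F test p, and for each member the 3 genes with the highest r. Promoters are RefSeq's. Alternatives were other pseudocounts, filters, scalings, covariates, array weights, blocks and probe set choices, and leaving out arrays.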

Additional observations from a re-analysis of the deposited data

Results flagged for a closer look

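Single arrays far from the other 4 of their group were found in 8 of the 90 groups of 5 arrays over the 15 probe sets. For independent groups chance gives about 1 in 20. These groups share genes and arrays, so no excess is read from the count. The gap to the nearest array, as a share of the group's range, is given for each. The shares were taken on normalized log2 values, whereas the values printed beside them are deposited intensities. Cdkn1a U24174_at was lowest in ISCH 1 (205 where the others had 692.7 to 857.9, share 0.865) and highest in IPC_TRI 5 (5496.5 against 1867 to 2599.5, share 0.762). Ccnd1 was lowest in ISCH 1 on D14014_g_at (145.1 against 441.4 to 669.7, share 0.776) and on X75207_s_at (327.9 against 465.7 to 572.4, share 0.745). X75207_s_at was also low in IPC_TRI 3 (124.7 against 328.4 to 412.2, share 0.866). On rc_AA957218_at, Ccnd1 was highest in IPC 5 (515.1 against 193.2 to 219.3, share 0.881) and lowest in APC_TRI 3 (131.5 against 537.9 to 760.7, share 0.801). Btg1 L26268_at was highest in CTL 2 (4828.3 against 3298.8 to 3565.1, share 0.749).

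For some probe sets the log2 change from trigger to full protocol differed from that from CTL to ISCH by an interaction contrast. Of the 14 tested probe sets of the members 5 were called for IPC, where 13.6% of all probe sets were. For APC 3 of the 14 were called, against 8.22% of all. The brightest probe sets of Gadd45a (0.13 for IPC and 0.62 for APC) and Ccnd1 (-0.86 and -0.94) were not called. For IPC the difference was 0.74 on Btg1 L26268_at, 1.40 on Btg1 L26268_g_at, 1.23 on Gadd45a L32591mRNA_at, -1.40 on Ccnd1 rc_AA957218_at and -1.29 on Ccnd1 X75207_s_at. For APC it was 1.55 on Gadd45a L32591mRNA_at, -1.28 on Ccnd1 X75207_s_at and 1.39 on Myc Y00396mRNA_g_at. Of these 8 only the Btg1 value of 0.74 belongs to the brightest probe set of its gene.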

How the results depend on the processing

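Counts below are of the 5 genes called. The share of all probe sets called under each setting is not given here. A changed count can therefore not be told from a general change in calls, and nothing is read from it. With array weights the count was 1 in IPC minus CTL, 1 in IPC_TRI minus CTL, 2 in APC_TRI minus CTL, 1 in IPC minus ISCH, 1 in IPC minus IPC_TRI and 3 in the APC interaction. With the beta-actin ratio as a covariate it was 0 in IPC_TRI minus CTL, in APC_TRI minus CTL and in IPC minus IPC_TRI. With the spike signal as a covariate it was 1 in IPC_TRI minus CTL, 1 in IPC minus IPC_TRI and 0 in the IPC interaction. With median centring it was 0 in APC minus CTL, 1 in IPC_TRI minus CTL, 1 in IPC minus IPC_TRI and 1 in the APC interaction. With the mean over probe sets it was 0 in APC minus CTL, 1 in IPC_TRI minus CTL, 2 in the IPC interaction and 1 in the APC interaction. In APC_TRI minus CTL the count stayed at 1 under that setting, but Myc (-0.99) was called in place of Cdkn1a (1.19). Without a filter it was 1 in IPC_TRI minus CTL and 1 in IPC minus IPC_TRI, and with the values as deposited 1 in IPC minus IPC_TRI. With only the groups of the contrast it was 1 in IPC_TRI minus CTL, 2 in APC_TRI minus CTL, 1 in IPC minus IPC_TRI and 1 in the APC interaction. Without IPC_TRI 5 and ISCH 1 together it was 1 in IPC_TRI minus CTL, 2 in the IPC interaction and 2 in the APC interaction. The cause was not tested.

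Same-numbered arrays of different groups were little more alike than others. Their deviations from the group means had a mean r of 0.012 (-0.151 to 0.207), against -0.002 for other numbers. Of 75 same-numbered pairs 9 were over 0.1, and 10 of 30 arrays correlated best with their own number. Whether the numbers mark a pairing is not settled by these values. With a replicate block the APC interaction had 1 call, and the other counts were within 1.5 times.

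Leaving out 1 array at a time gave counts of 2 to 3 in ISCH minus CTL, 0 to 0 in IPC minus CTL, 1 to 1 in APC minus CTL, 0 to 2 in IPC_TRI minus CTL, 1 to 2 in APC_TRI minus CTL, 1 to 3 in IPC minus IPC_TRI, 2 to 3 in APC minus APC_TRI, 1 to 2 in the IPC interaction and 0 to 1 in the APC interaction. The other counts of the 5 genes remained 0. Calls of list genes, summed over the contrasts, ranged from 0 to 3 for CDK inhibitors, 6 to 12 for G1 genes, 1 to 6 for S phase and mitosis, 1 to 3 for p53, 20 to 25 for growth arrest and 17 to 22 for Myc.

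With all arrays the summed list calls were 2 for CDK inhibitors (0 with 60% left out, array weights or only the groups of the contrast), 10 for G1 genes (5 with median centring), 4 for S phase and mitosis (9 without a filter) and 2 for p53 (1 without a filter, with the values as deposited, median centring or only the groups of the contrast, and 4 with array weights).

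Another probe set reversed Gadd45a in ISCH minus CTL (0.59 and 0.019 on the rc_AI070295 pair), in IPC_TRI minus CTL (-0.89 on L32591mRNA_at), in IPC minus IPC_TRI (0.58, 0.63 and 0.21 on the other 3, and 0.23 with the mean over probe sets) and in APC minus APC_TRI (0.90). It reversed Btg1 in APC minus APC_TRI (0.14) and Ccnd1 in IPC minus IPC_TRI (-0.96). Median centring moved the median of all probe sets to -0.19 in IPC_TRI minus CTL and to 0.19 in IPC minus IPC_TRI; there Cdkn1a had 0.99 and -1.03, not called. No named list gene that was called changed direction with the other scalings, though some values shrank. Cdc37 in IPC_TRI minus CTL went from 0.42 to 0.185 with median centring. The calls of Cdkn1a and Myc in APC minus APC_TRI were kept under all settings run. Those of Btg1 and Ccnd1 in ISCH minus CTL were kept under all but the use of another probe set (-0.65 for Btg1 and 0.44 for Ccnd1).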
